A study of Mus musculus with 36 samples.

Results

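Collagen chain genes are the genes whose products are the alpha chains of collagen trimers. They were taken as the genes named Col, a number, a and a number that stood above zero in 18 or more of the 36 libraries. The deposited tables listed 49585 features, of which 44 matched by name, and 41 genes were kept. The remaining names, Col10a1, Col2a1 and Col9a1, stood above zero in fewer libraries and were not used. The 41 genes comprised 10 fibrillar chains, 8 basement membrane chains, 6 type VI chains and 17 other chains, and all 41 passed the filter on low values and entered the tests.

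The series followed total RNA of the whole mouse bladder. The 12 groups were CORT, meaning corticosterone given in the inactive phase, and vehicle, each labelled 4, 8, 12, 16, 20 or 24 h, with 3 libraries per group. All animals, vehicle included, were C57BL/6 mice whose adrenal glands had been removed on both sides. The labels used here give no age or sex, do not say what the hours are counted from, and do not say whether the 3 libraries of a group come from separate animals, so the p-values measure the spread between these libraries, which may in part be technical.

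Collagen trimers are built in the endoplasmic reticulum from alpha chains whose prolines and lysines are hydroxylated, and are then exported, trimmed and crosslinked outside the cell. Fibrillar collagens form the tensile fibrils of the bladder wall, type IV collagen forms the sheets under urothelium, endothelium and around smooth muscle cells, and type VI collagen forms beaded filaments between them. Corticosterone is the main glucocorticoid of the mouse, and glucocorticoids are known to lower collagen synthesis in cultured fibroblasts.

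The deposited values are read counts that the authors had quantile normalized, in separate tables for CORT and vehicle. A common scale was rebuilt here from the sorted values of the tables, so every level set across the treatments rests on that scale, and a value is called a normalized value below. Among the most abundant genes a quantile normalized value depends on the gene's rank in its library, so the same value can recur in several libraries. Depth, as the mean total count over the replicate numbers, was 11016413 reads for CORT libraries and 10682675 for vehicle libraries. Urothelial marker genes summed to 64392 to 120304 in CORT and 62341 to 145678 in vehicle, and smooth muscle marker genes to 207274 to 377582 in CORT and 146978 to 424176 in vehicle. The labels' protocol speaks of blood RNA and globin removal, while the source is bladder. Red cell markers summed to 1084 to 3719 in CORT and 975 to 6419 in vehicle. In the authors' tables of selected genes with 18 libraries, 8 libraries of replicate number 2 stand under the name of another group, 4 of them under the other treatment and 4 under another time of their own treatment. The 4 under the other treatment also stand under another time. The treatment of those 4 libraries and the time of all 8 are therefore in doubt. In the authors' tables of selected genes with 12 libraries, 0 columns held another library than in the full tables. The names of the full tables were used, and the result under the other names is given beside the first comparison. The libraries of replicate number 3 carry no time tag, and their time was read from their titles.

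Promoter sequences are shown for the genes on which the results below turn. They come from RefSeq (GRCm38.p6), whose table held a window for 33 of the 41 genes, and each run is read 5′ to 3′ along the gene's own strand. A window of that table has 300 bases, 250 before the RefSeq start and 50 from the start on. The RefSeq start was the GENCODE gene start for 18 of the 33 genes, lay inside the GENCODE gene for 13 and before it for 2. Col4a1 and Col4a2 lie head to head, and the 78 bases that their windows of 300 bases share are given on the + strand (chr8:11312777-11312854). The capitals there mark the 22 bases from the start of Col4a2 to the start of Col4a1, both ends included.
Col4a1 and Col4a2: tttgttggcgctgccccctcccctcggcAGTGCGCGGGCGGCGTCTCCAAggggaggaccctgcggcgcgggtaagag
The next 4 runs are the 250 bases before the RefSeq start of Col5a1 (chr2:27886175-27886424, + strand), the regulatory type V chain, Col1a2 (chr6:4505368-4505617, + strand), a chain of type I collagen, and Col5a3 (chr9:20815068-20815317, - strand) and Col17a1 (chr19:47692043-47692292, - strand), the genes that varied over the day in vehicle. For Col5a1 and Col5a3 both annotations have the same start, while the RefSeq start lies 804 bases inside the GENCODE gene for Col1a2 and 52 bases inside it for Col17a1, so those 2 runs lie in part or wholly within the GENCODE gene. The capitals mark matches, on either strand, to the GC box (GGGCGG), to the CCAAT motif and to the TATA box, whose letters were searched as TATAAA.
Col5a1: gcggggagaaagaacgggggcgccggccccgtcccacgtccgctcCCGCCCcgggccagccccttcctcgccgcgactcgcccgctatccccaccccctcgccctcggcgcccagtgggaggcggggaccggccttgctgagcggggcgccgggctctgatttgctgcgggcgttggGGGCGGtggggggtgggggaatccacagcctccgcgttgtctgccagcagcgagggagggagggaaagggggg
Col1a2: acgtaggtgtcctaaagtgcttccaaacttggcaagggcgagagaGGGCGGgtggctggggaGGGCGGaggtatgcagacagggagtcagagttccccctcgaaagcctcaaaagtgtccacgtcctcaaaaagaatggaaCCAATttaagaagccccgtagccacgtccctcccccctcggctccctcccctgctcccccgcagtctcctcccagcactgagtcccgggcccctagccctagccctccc
Col5a3: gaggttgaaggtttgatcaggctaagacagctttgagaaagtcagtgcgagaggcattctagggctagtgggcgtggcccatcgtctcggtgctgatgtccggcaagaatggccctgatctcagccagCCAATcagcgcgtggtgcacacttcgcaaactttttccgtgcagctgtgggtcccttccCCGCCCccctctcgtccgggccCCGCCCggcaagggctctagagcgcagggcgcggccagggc
Col17a1: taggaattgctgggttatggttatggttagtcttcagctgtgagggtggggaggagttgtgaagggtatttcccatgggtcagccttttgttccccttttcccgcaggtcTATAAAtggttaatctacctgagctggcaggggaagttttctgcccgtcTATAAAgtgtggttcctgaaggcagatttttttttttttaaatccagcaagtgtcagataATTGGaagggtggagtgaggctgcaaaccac
Motifs were searched on both strands of the 250 bases before the RefSeq start, and not in the 50 bases after it. Over the 33 windows, GGGCGG (the GC box) was present in 21, or 63.6%, against 32.7% of the 32851 windows of the table. CCAAT was present in 12 of the 33, or 36.4%, against 33.8% of the windows of the table, and TATAAA in 4, or 12.1%, against 12.4%. The palindromic glucocorticoid response element was in none of the 33 and in 0.00913% of all windows, CACGTG (the E-box) in none and 6.02%, TTATGTAA (the D-box) in none and 0.819%, and AGGTCA (the site of REV-ERB and ROR) in 7 of the 33 and in 4607 of all windows. These matches describe letters in the windows and say nothing of binding.

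The first question was how collagen chain genes differed between CORT and vehicle over the whole day. In CORT bladders 20 of the 41 genes were lower than in vehicle bladders and 0 were higher, in limma's test of the mean over the 6 times at an adjusted p of 0.05. Of all 17867 features tested, 2.82% were lower and 1.29% were higher. The median log2 change was -0.40 over the 41 genes and 0.02 over all features, and 38 of the 41 log2 changes were negative. Together the 41 genes held 1.72% ± 0.28 of the summed signal in CORT and 2.40% ± 0.45 in vehicle (SD, n = 18 each), with a range of 1.31% to 2.38% in CORT and 1.78% to 3.38% in vehicle. The 20 lower genes had log2 changes of -0.74 to -0.33, and each of the 20 stayed negative under all alternatives that were run. In bulk tissue, fewer cells of a type and less RNA per cell cannot be told apart.

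**Figure D1:**
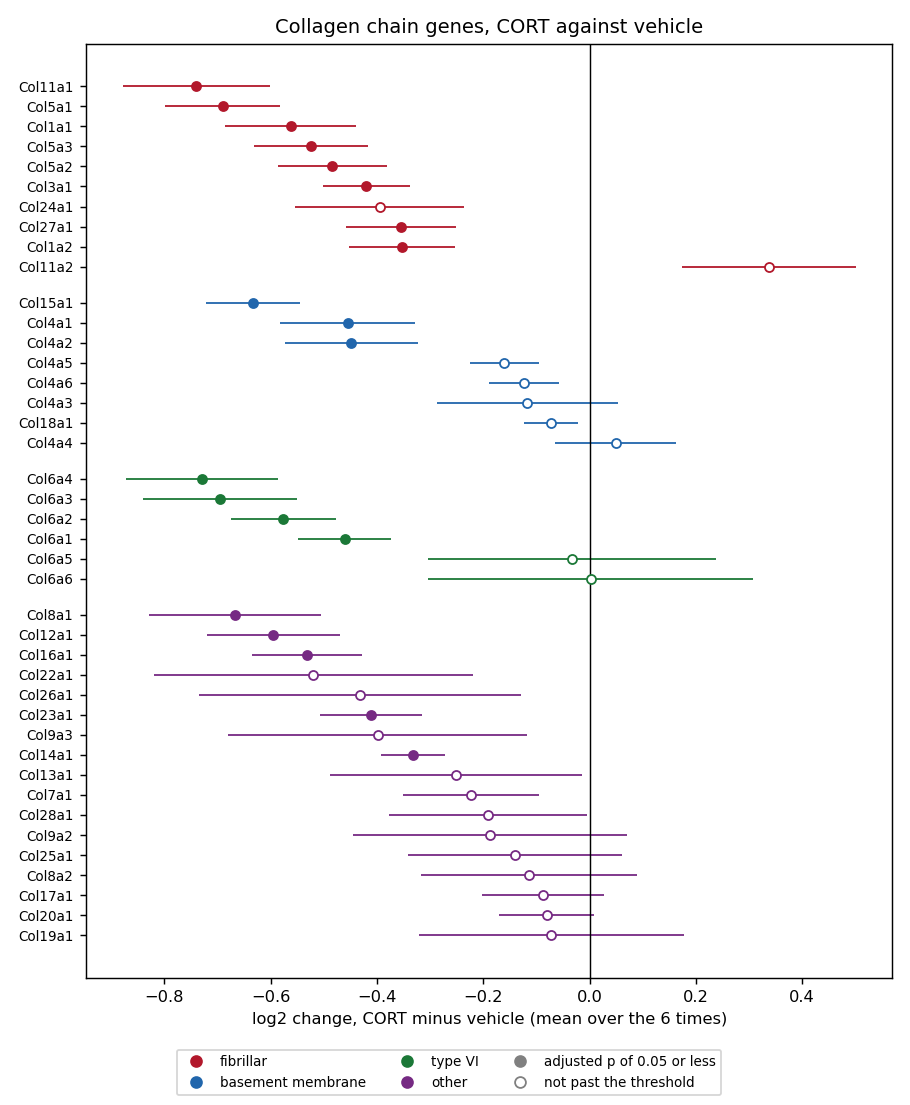
Log2 change of each of the 41 collagen chain genes, CORT minus vehicle, as the mean over the 6 times (x axis) with its standard error (bars), ordered within 4 groups that are shown by colour. Filled points are the 20 genes past an adjusted p of 0.05 in limma, all to the left of 0, and open points are the other 21.

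The number of calls rests on the whole set of libraries. Without replicate 1, 2 or 3 the count was 12, 0 and 3 genes, against 1.83%, 0.00559% and 0.146% of all features called lower. Without the 8 libraries that carry another name in the selected-gene tables it was 0 (0.028% of all features) with a median log2 change of -0.31. Under those other names it was 0 (0% of all features) with a median of -0.26. Without the libraries of 8 h it was 2, Col15a1 and Col6a4 (0.112% of all features), with a median of -0.29. The calls thus fell over all features as well. Leaving out any single library, 16 of the 20 genes kept their call, while Col1a2, Col27a1, Col4a1 and Col4a2 lost it without 25, 26, 23 and 23 of the 36 libraries, with adjusted p-values up to 0.0831, 0.0884, 0.0714 and 0.0754.

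Among the fibrillar chains 8 of 10 were lower in CORT, with a median log2 change of -0.45. Col1a1, the major chain of type I collagen, ranged from 30385 through a median of 49720 to 74458 in CORT and from 40272 through 63166 to 105383 in vehicle. Its values overlapped between the treatments, with 17 of 18 CORT libraries below the vehicle median, and its log2 change was -0.56 ± 0.12 (SE, adjusted p = 0.0104). Its partner Col1a2, the other chain of the type I trimer, ranged from 26025 through 41092 to 52935 in CORT and from 30385 through 49720 to 69029 in vehicle. The log2 change of Col1a2 was -0.35 ± 0.10 (adjusted p = 0.0439). Col3a1, whose homotrimers are mixed into type I fibrils of distensible organs, ranged from 27907 through 34426 to 46894 in CORT and from 31783 through 45500 to 74458 in vehicle, a log2 change of -0.42 ± 0.08 (adjusted p = 0.0046). These 3 genes made up 64.8% of the summed signal of the collagen chain genes in CORT and 64.3% in vehicle.

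The type V and type XI chains, which set where fibrils start and how thick they grow, included the largest change of the 20. Col11a1 (chr3:114030540-114220718, + strand) ranged from 164 through a median of 282 to 570 in CORT and from 347 through 419 to 844 in vehicle. Every vehicle library stood above the CORT median of Col11a1, and its log2 change was -0.74 ± 0.14 (adjusted p = 0.0035). Col5a1 (chr2:27886425-28039514, + strand) ranged from 1916 through 3440 to 5044 in CORT and from 3471 through 5118 to 8555 in vehicle. All 18 CORT libraries lay below the vehicle median of Col5a1 and all 18 vehicle libraries above its CORT median, with a log2 change of -0.69 ± 0.11 (adjusted p = 0.0010). Col5a2, the chain that joins 2 Col5a1 chains in the common type V trimer, changed by -0.48 ± 0.10 (adjusted p = 0.0077), and Col5a3, an alternative type V chain, by -0.52 ± 0.11 (adjusted p = 0.0064). Col27a1, a minor fibrillar chain, had a log2 change of -0.35 ± 0.10 (adjusted p = 0.0486). The fibrillar chains past no threshold were Col24a1, at -0.40 ± 0.16 (adjusted p = 0.158), and Col11a2, at 0.34 ± 0.16 (adjusted p = 0.245). Col11a2 was a low gene, averaging 13.8 ± 4.33 in CORT and 10.7 ± 3.92 in vehicle (SD, n = 18 each).

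Among the basement membrane chains 3 of 8 were lower in CORT, with a median log2 change of -0.14. Col4a1 (chr8:11198423-11312826, - strand), which forms the widespread type IV network with Col4a2, ranged from 4984 through 8954 to 12742 in CORT and from 6018 through 12669 to 15358 in vehicle. The treatments overlapped, with 17 of 18 CORT libraries below the vehicle median, and the log2 change of Col4a1 was -0.46 ± 0.13 (adjusted p = 0.0401). Col4a2 (chr8:11312805-11449287, + strand) ranged from 3765 through 6447 to 8623 in CORT and from 4162 through 8999 to 11524 in vehicle, with a log2 change of -0.45 ± 0.13 (adjusted p = 0.0414). Col15a1 (chr4:47208161-47313167, + strand), a proteoglycan collagen at the outer face of basement membranes, had the smallest p of the 41 genes. It ranged from 950 through 1379 to 2722 in CORT and from 1384 through 2235 to 3715 in vehicle, all 18 vehicle libraries stood above the CORT median, and its log2 change was -0.63 ± 0.09 (adjusted p = 0.00037).

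The tissue-restricted type IV chains and Col18a1 did not pass the test. Col18a1, the source of endostatin, ranged from 1916 through 2076 to 2665 in CORT and from 1788 through 2266 to 2682 in vehicle, with a log2 change of -0.07 ± 0.05 (adjusted p = 0.442). Col4a5 and Col4a6, which form a trimer found around smooth muscle, changed by -0.16 ± 0.07 (adjusted p = 0.163) and by -0.12 ± 0.07 (adjusted p = 0.301). Col4a3 and Col4a4, partners of Col4a5 in the kidney filter, stood at -0.12 ± 0.17 and 0.05 ± 0.11 (adjusted p = 0.753 and 0.867). Smooth muscle markers had 0 of 10 genes past the threshold in either direction and a median log2 change of -0.08. Col4a1 and Col4a2 were called lower, as given above, and a link between type IV chains and smooth muscle cells was not tested.

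Among the type VI chains 4 of 6 were lower in CORT, with a median log2 change of -0.52. Col6a1 ranged from 4604 through 6766 to 8023 in CORT and from 6701 through 8311 to 13585 in vehicle, a log2 change of -0.46 ± 0.09 (adjusted p = 0.0038). Col6a2 ranged from 2984 through 4680 to 5689 in CORT and from 4867 through 6313 to 11646 in vehicle, a log2 change of -0.58 ± 0.10 (adjusted p = 0.0020). All 18 CORT libraries lay below the vehicle median for both genes. Col6a3, the long chain that completes the trimer, ranged from 3146 through 6302 to 12416 in CORT and from 6701 through 11327 to 14056 in vehicle, a log2 change of -0.70 ± 0.15 (adjusted p = 0.0073). Of the chains that can stand in for Col6a3, Col6a4 ranged from 8.94 through 22.1 to 66.7 in CORT and from 16.3 through 39.0 to 69.9 in vehicle, a log2 change of -0.73 ± 0.14 (adjusted p = 0.0044). The other substitutes did not pass: Col6a5 stood at -0.03 ± 0.27 and Col6a6 at 0.00 ± 0.31, with adjusted p = 0.972 and 0.999. The SE of both was larger than that of any of the 4 called type VI chains.

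Among the other chains 5 of 17 were lower in CORT, with a median log2 change of -0.25. Of these Col12a1, Col14a1 and Col16a1 belong to the collagens that decorate fibrils without forming their own. Col12a1 ranged from 4883 through 8562 to 13735 in CORT and from 6357 through 13392 to 15853 in vehicle, a log2 change of -0.60 ± 0.13 (adjusted p = 0.0077). Col14a1 ranged from 4074 through 5530 to 7888 in CORT and from 5296 through 7189 to 9219 in vehicle, with a log2 change of -0.33 ± 0.06 (adjusted p = 0.0028), the smallest change and the smallest SE among the 20 called genes. Col16a1 ranged from 878 through 1293 to 1951 in CORT and from 1477 through 1820 to 2559 in vehicle, a log2 change of -0.53 ± 0.10 (adjusted p = 0.0043). Col8a1, a short-chain collagen of vessel walls, changed by -0.67 ± 0.16 (adjusted p = 0.0206), and Col23a1, a transmembrane collagen, by -0.41 ± 0.10 (adjusted p = 0.0161). The 12 others had log2 changes of -0.52 to -0.07 and adjusted p-values of 0.333 and above. They include the epithelial anchoring collagens Col17a1 and Col7a1, the transmembrane chains Col13a1 and Col25a1, the fibril-associated chains Col9a2, Col9a3, Col19a1, Col20a1 and Col22a1, and Col8a2, Col26a1 and Col28a1.

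Calls were found mostly among abundant genes. Of 18 genes with a mean normalized value of 1000 or more 15 were lower in CORT, against 5 of 23 under 1000. The shares of all features called at these levels were not computed, so this split cannot be read as particular to collagen chain genes. Replicate spread was also wide, with a median SD on the log2 scale of 0.40 in CORT and 0.36 in vehicle for the collagen chain genes, and of 0.25 in CORT and 0.24 in vehicle over all features. Per kilobase of exon, the order of levels began with Col1a1, Col3a1, Col1a2, Col6a1, Col4a1 and Col4a2 in both treatments. The divisor is the union of all annotated exons, so this order depends on the annotation too. It was 12.4 kb for Col1a2 against 6.56 kb for Col1a1, and 8.33 kb for Col6a2 against 4.38 kb for Col6a1. Col1a1 stood at 7147 ± 1635 per kilobase in CORT and 10724 ± 3226 in vehicle, and Col3a1 at 3599 ± 574 in CORT and 4891 ± 1228 in vehicle (SD, n = 18 each). Col1a2 stood at 3162 ± 628 per kilobase in CORT and 4055 ± 900 in vehicle, within 1 SD of Col3a1. Col6a1 followed at 1468 ± 269 in CORT and 2019 ± 398 in vehicle, and Col4a1 at 1199 ± 287 in CORT and 1640 ± 342 in vehicle, about 1 SD apart.

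The difference was then followed at each time. At 8 h, 10 of the 41 genes were lower in CORT, against 0.66% of all features. They were Col1a1, Col3a1, Col5a1, Col5a2, Col5a3, Col11a1, Col6a1, Col6a2, Col15a1 and Col16a1, so 6 of the 10 were fibrillar chains. At 4 h 1 gene was called lower (Col5a3, against 0.0504% of all features) and at 24 h 1 (Col6a4, against 0.0336%). No gene was called lower at 12, 16 or 20 h, where 0.0392%, 0.0112% and 0% of all features were called lower; with an unadjusted p under 0.05, 5, 2 and 11 genes were lower there, against 2.61%, 2.14% and 2.8% of all features. In the other direction no collagen chain gene was called at any time, against 0.112% of all features at 4 h, 0.134% at 8 h, 0.0056% at 12 h and 0% at 16, 20 and 24 h. The median log2 change of the 41 genes was -0.39, -0.50, -0.31, -0.26, -0.42 and -0.26 from 4 to 24 h.

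At 8 h, Col1a1 was at 30385, 34930 and 52935 in CORT, against 69029, 105383 and 105383 in vehicle. The 3 CORT libraries lay below the 3 vehicle libraries, and the log2 change was -1.26 ± 0.30 (SE, adjusted p = 0.0464). Col3a1 was at 31783, 29389 and 34930 in CORT, against 57882, 74458 and 74458 in vehicle, with no overlap and a log2 change of -1.10 ± 0.20 (adjusted p = 0.0111). Col11a1 was at 164, 164 and 315 in CORT, against 675, 682 and 844 in vehicle. This was the largest change of the 10, at -1.83 ± 0.34 (adjusted p = 0.0117), and the highest CORT library remained well under the lowest vehicle library. Col5a1 was at 2639, 2557 and 3440 in CORT, against 6701, 6903 and 8555 in vehicle (log2 change -1.36 ± 0.27, adjusted p = 0.0154). Col6a2 was at 2984, 3682 and 5101 in CORT, against 7508, 8436 and 11646 in vehicle (log2 change -1.24 ± 0.24, adjusted p = 0.0154). In both genes the third CORT library was the highest of its group and did not reach the vehicle libraries. Col6a1 was at 4802, 5273 and 7344 in CORT, against 9826, 11270 and 13585 in vehicle (log2 change -1.01 ± 0.21, adjusted p = 0.0248). Col15a1 was at 1261, 1358 and 1653 in CORT, against 2722, 2752 and 3715 in vehicle (log2 change -1.10 ± 0.22, adjusted p = 0.0158). Col4a1 was at 8287, 7423 and 9144 in CORT, against 14834, 12245 and 12596 in vehicle; the groups did not overlap, but the gene was not called.

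**Figure D2:**
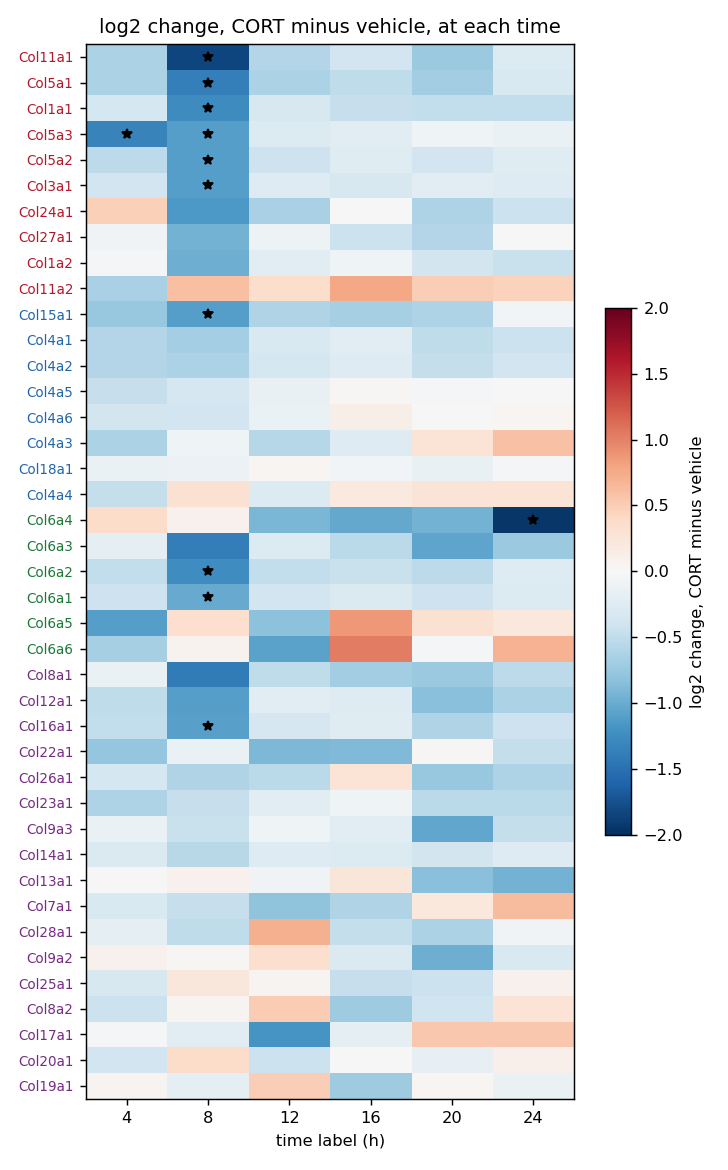
Log2 change, CORT minus vehicle, of the 41 collagen chain genes (rows, names coloured by group as fibrillar red, basement membrane blue, type VI green, other purple) at the 6 time labels (columns, h). Blue is lower in CORT, the colour scale runs from -2 to 2, and stars mark the 12 gene and time pairs with an adjusted p of 0.05 or less, 10 of them at 8 h.

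Counted by separation alone, 22 of the 41 genes had all 3 CORT libraries below all 3 vehicle libraries at 8 h, against 10.6% of all features. The count was 12 genes at 4 h (6.29% of features), 1 at 12 h (3.34%), 6 at 16 h (3.24%), 19 at 20 h (6.05%) and 3 at 24 h (4.84%). In the other direction 1 gene separated at 24 h (6.11% of features), the anchoring fibril collagen Col7a1, with its lowest library at 17.7 in CORT against its highest at 17.2 in vehicle. At 20 h, where no gene was called, Col4a1 was at 10560, 7980 and 9554 in CORT, against 13735, 13399 and 12742 in vehicle. The share of signal in all 41 genes was 1.31%, 1.40% and 1.75% in the CORT libraries of 8 h, against 2.60%, 3.24% and 3.38% in the vehicle libraries of 8 h. At 16 h it was 1.66%, 1.74% and 1.94% in CORT, against 2.22%, 2.37% and 1.97% in vehicle, and the groups lay closer together. The calls at 8 h depend on single libraries: 0 of the 10 remained without CORT replicate 1, CORT replicate 2, vehicle replicate 2 or vehicle replicate 3 of that time, and 0 without the 8 libraries named in both ways. The shares of all features called at 8 h in these settings are not given here, so the loss cannot be read as particular to collagen chain genes.

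**Figure D3:**
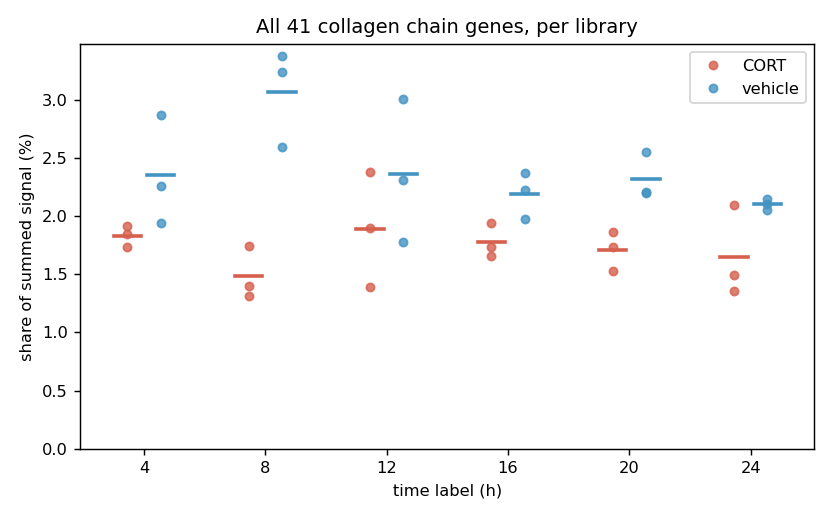
Share of the summed signal (%, y axis) held by the 41 collagen chain genes in each library at each time label (h, x axis), with CORT on the left and vehicle on the right of each time, points for the 3 libraries and bars for their mean. At 8 h the CORT libraries lay between 1.31% and 1.75% and the vehicle libraries between 2.60% and 3.38%.

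Whether the difference itself varied over the 6 times was tested with an F test of the interaction in limma. It called 0 of the 41 genes, against 0.134% of all features, and 6 genes had an unadjusted p under 0.05, against 5.51% of all features. The smallest adjusted p was 0.279, for Col6a4. The cluster of calls at 8 h was therefore not shown to differ from the other times.

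Change over the day within a treatment was seen in few collagen chain genes. In CORT 0 of the 41 genes changed over the 6 times (0.118% of all features; 3 genes at an unadjusted p under 0.05, against 6.72%) and 0 had a 24 h rhythm (0.0112% of all features; 2 genes at an unadjusted p under 0.05, against 6.36%). In vehicle 1 gene changed over the 6 times (1.18% of all features), and 2 had a 24 h rhythm (1.01% of all features). They were Col5a3, which passed both tests, and Col17a1, a transmembrane collagen of the hemidesmosomes of basal epithelial cells.

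Col5a3 in vehicle was high at the early labels. In CORT its libraries at 4 h were at 244, 179 and 136, against 519, 423 and 434 in vehicle, and at 8 h at 209, 200 and 252, against 466, 438 and 519 in vehicle. At both times the treatments did not overlap, with log2 changes of -1.33 ± 0.26 (adjusted p = 0.0282) and -1.10 ± 0.26 (adjusted p = 0.0451). At 16 h Col5a3 was at 130, 208 and 192 in CORT, against 263, 205 and 150 in vehicle, and at 20 h at 204, 210 and 193 in CORT, against 249, 227 and 176 in vehicle. The groups overlapped at these later labels. The call at 4 h was lost without CORT replicate 2 or 3 or any vehicle library of 4 h (adjusted p = 0.0882 to 0.335), and the change over the 6 times in vehicle (adjusted p = 0.0257) without vehicle replicate 1 or 3 at 4 h, replicate 3 at 8 h, replicate 2 at 16 h or replicate 3 at 20 h (0.0513 to 0.0618). The fitted cosine had an amplitude of 0.67 ± 0.11 on the log2 scale with a peak at 5.74 h in vehicle (adjusted p = 0.0035).

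Col17a1 in vehicle was highest at 12 h. There it was at 366, 408 and 448 in CORT, against 849, 990 and 936 in vehicle, with no overlap, while at 24 h it was at 313, 687 and 622 in CORT, against 283, 396 and 383 in vehicle, with overlap. The difference at 12 h was not called in limma (log2 change -1.18 ± 0.28, adjusted p = 0.266). The library at 990, vehicle replicate 2, also had the highest urothelial and the lowest smooth muscle marker sum in vehicle (145678 and 146978). The vehicle amplitude of Col17a1 was 0.62 ± 0.12 with a peak at 11.6 h (adjusted p = 0.0176, and 0.0389 without that library). Its difference between treatments over the day was -0.09 ± 0.12 (adjusted p = 0.723). The interaction test did not call Col17a1 (adjusted p = 0.353) or Col5a3 (adjusted p = 0.489), so a difference in their time course between treatments was not shown.

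Col6a4, a type VI chain that is low in bladder, was the gene called at 24 h. At 4 h it was at 33.7, 59.0 and 66.7 in CORT, against 41.5, 43.5 and 33.3 in vehicle, and at 24 h it was at 11.7, 8.94 and 14.6 in CORT, against 59.0, 25.6 and 69.9 in vehicle. The groups overlapped at 4 h and separated at 24 h, where the log2 change was -1.95 ± 0.35 (adjusted p = 0.0232). Without any one of the 3 CORT libraries or of vehicle replicates 1 and 3 at 24 h the call was lost, with adjusted p-values of 0.0721 to 0.213. Its change over the 6 times in CORT had an adjusted p of 0.0935.

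**Figure D4:**
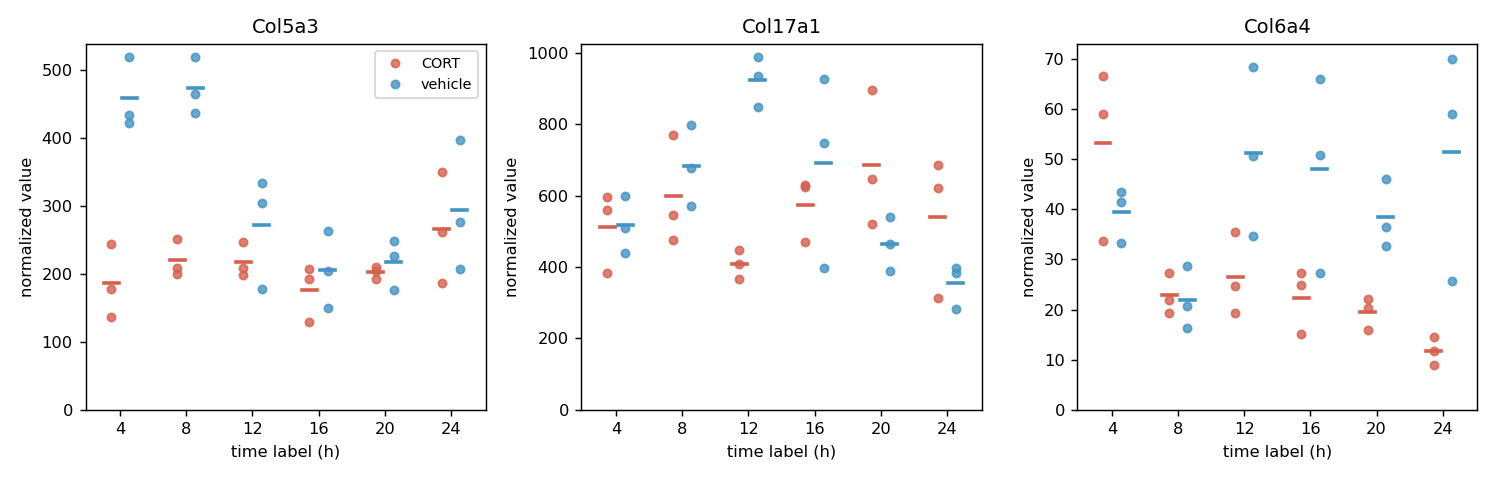
Normalized value (y axis) of Col5a3, Col17a1 and Col6a4 in every library by time label (h, x axis), with CORT on the left and vehicle on the right of each time and bars for the mean of 3 libraries. Vehicle libraries of Col5a3 lie between 423 and 519 at 4 and 8 h, those of Col17a1 between 849 and 990 at 12 h, and CORT libraries of Col6a4 between 8.94 and 14.6 at 24 h.

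Across all 41 genes the median fitted amplitude was 0.11 in CORT and 0.26 in vehicle, and it was larger in vehicle for 32 genes. Amplitudes of fitted cosines are never negative and rise with noise, and no test of this difference was made. Amplitudes over all features are not given here, so the difference cannot be read as particular to collagen chain genes. Of all features, 0.0112% were called rhythmic in CORT and 1.01% in vehicle. The rhythm of Col5a3 and of Col17a1 in vehicle did not pass without replicate 2 (adjusted p = 0.169 and 0.378), without replicate 3 (0.188 and 0.287) or without the 8 libraries named in both ways (0.125 and 0.117). Under the other names of those 8 libraries the adjusted p-values of the rhythm were 0.99996 for Col5a3 and 0.837 for Col17a1. In the authors' deposited tables of selected genes, Col5a3, Col17a1 and Col9a1 stand in the vehicle table made from 12 libraries, Col9a3 in the vehicle table made from 18, and Col22a1 in the CORT table made from 12.

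Chains that share a trimer were set side by side as the log2 ratio of their normalized values within a library. Col3a1 and Col1a1, which share fibrils but no trimer, were set side by side in the same way. The ratio of Col4a1 to Col4a2 was nearly the same in both treatments, at 0.50 ± 0.10 in CORT and 0.51 ± 0.08 in vehicle (SD, n = 18 each), a difference of -0.01. Its range over all 36 libraries was 0.33 to 0.69, while Col4a1 itself ranged from 4984 to 12742 in CORT and from 6018 to 15358 in vehicle. These are the chains whose starts lie 21 bases apart in the run printed above, and 22 exonic bases of each lie in the other on the opposite strand. The strand setting of the counting is not given in the sources used here.

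Type I and type V pairs did not hold so constant a ratio. Col1a1 to Col1a2 stood at 0.25 ± 0.14 in CORT and 0.46 ± 0.20 in vehicle, a difference of -0.21. Col5a1 to Col5a2 stood at 0.04 ± 0.23 in CORT and 0.25 ± 0.14 in vehicle, a difference of -0.21. In both pairs the difference was about the size of the spread between libraries, and the treatments overlapped. For Col6a1 to Col6a2 the ratio was 0.54 ± 0.10 in CORT and 0.42 ± 0.09 in vehicle, a difference of 0.12, and for Col4a5 to Col4a6, which are also neighbours on opposite strands, it was 0.69 ± 0.14 in CORT and 0.73 ± 0.13 in vehicle. Col4a3 to Col4a4 stood at -1.97 ± 0.40 in CORT and -1.81 ± 0.41 in vehicle. Col3a1 to Col1a1 stood at -0.39 ± 0.21 in CORT and -0.53 ± 0.24 in vehicle. No test was run on these ratios.

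**Figure D5:**
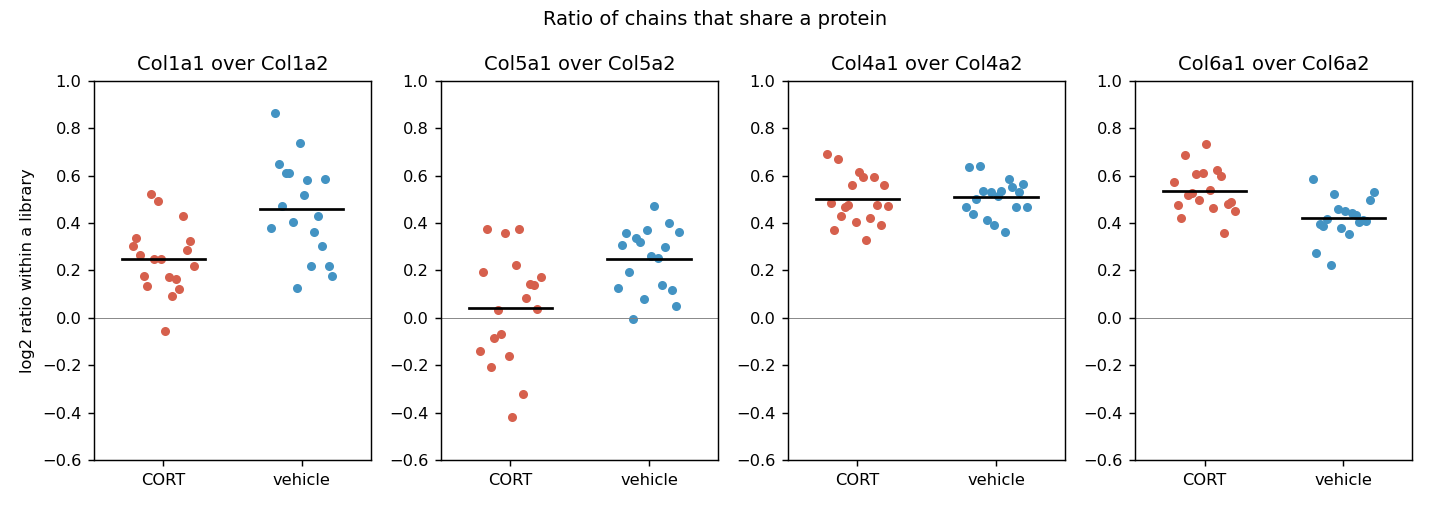
Log2 ratio of 2 chain genes within each library (y axis, not per length) for 4 chain pairs, with CORT on the left and vehicle on the right, points for 18 libraries per treatment and black bars for their mean. The Col4a1 over Col4a2 means are 0.50 in CORT and 0.51 in vehicle, and the Col1a1 over Col1a2 means are 0.25 in CORT and 0.46 in vehicle.

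Genes that process and bind collagen were counted by lists, over the same mean of the 6 times and against the same 2.82% of all features called lower; 0 genes of these lists were called higher. Propeptide removal and crosslinking had 9 of 12 genes lower in CORT and a median log2 change of -0.37. The genes with the smallest p there were Bmp1, a procollagen C-proteinase, at -0.38 ± 0.06 (adjusted p = 0.00087), and Adamts2, a procollagen N-proteinase, at -0.48 ± 0.08 (adjusted p = 0.0016). Folding and export had 2 of 5 lower, Serpinh1, the collagen chaperone HSP47, at -0.55 ± 0.10 (adjusted p = 0.0039), and Fkbp10, a prolyl isomerase, at -0.43 ± 0.11 (adjusted p = 0.0280). Prolyl and lysyl modification had 6 of 15 lower, led by P3h3, a prolyl hydroxylase family member, at -0.35 ± 0.07 (adjusted p = 0.0053), and Plod1, a lysyl hydroxylase, at -0.28 ± 0.06 (adjusted p = 0.0063).

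Fibril-associated proteoglycans and glycoproteins had 6 of 11 lower, led by Sparc, a collagen-binding glycoprotein, at -0.49 ± 0.09 (adjusted p = 0.0027), and Prelp, a leucine-rich proteoglycan, at -0.44 ± 0.08 (adjusted p = 0.0043). Within that list the proteoglycan Dcn, which coats type I fibrils, stood at 0.08 ± 0.06 (adjusted p = 0.497). Collagen receptors had 1 of 9 lower, the uptake receptor Mrc2 at -0.40 ± 0.08 (adjusted p = 0.0039), and the second smallest p was that of the integrin chain Itga11 at -0.63 ± 0.19 (adjusted p = 0.0522). Collagen-degrading enzymes had 2 of 6 lower, the proteinases Mmp2 at -0.38 ± 0.09 (adjusted p = 0.0190) and Mmp14 at -0.28 ± 0.08 (adjusted p = 0.0374).

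Markers of cell types moved beside these genes in part. Fibroblast markers had 4 of 10 genes lower in CORT, with a median log2 change of -0.19, and their summed value ranged from 44488 to 62086 in CORT and from 42682 to 70622 in vehicle. Endothelial markers had 9 of 10 lower, with a median of -0.41 and sums of 3022 to 5278 in CORT and 3920 to 7449 in vehicle. Cell division genes had 9 of 10 lower, with a median of -0.89 and sums of 220 to 776 in CORT and 379 to 1955 in vehicle. No gene of these 3 lists, nor of the urothelial and smooth muscle lists, was at zero in more than 18 of the libraries. Markers of urothelium (0 of 12), smooth muscle (0 of 10), mesothelium (0 of 5), adipocytes (0 of 6), skeletal muscle (0 of 6), Schwann cells (0 of 5), leukocytes (0 of 5) and red cells (0 of 6) had no gene called in either direction. The part of these cell types and of dividing cells in the values of the collagen chain genes was not tested.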

How the data were processed

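Total RNA of whole bladders was sequenced after ribosomal RNA depletion with a directional library kit, per the labels' protocols. The signal values are read counts per feature, deposited by the authors after quantile normalization within each table of 12 libraries, as the values themselves show, on mm10 per the submitters' processing notes; the sources used here name neither the counter nor its strand setting. The log2 values of the selected genes were deposited by the authors as transformed tables and served to compare library names and to list genes. The normalized tables hold each library in 2 tables of one treatment. A common scale was rebuilt as the mean of their sorted values, with each library ranked by its values in its tables.

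Tests used limma 3.58.1 (R 4.3.3) on log2(value + 1) with 12 group means over 36 libraries. Features whose value was the table minimum in over 18 libraries were dropped, which left 17867, and p-values were adjusted by the Benjamini-Hochberg method over all of them within each comparison, with a threshold of 0.05. Contrasts were CORT minus vehicle as the mean over the 6 times and at each time. F tests covered the interaction and the change over time, and a cosine and a sine with a period of 24 h covered rhythm. On simulated data for the mean over the 6 times (17867 features) the fit recovered 99.0% of log2 changes of 1 and 90.0% of log2 changes of 0.5. The changes were planted only in genes above a set mean level, with independent noise, so these shares do not hold for low genes. Recovery was not estimated for the collagen chain genes, whose spread between replicates was wider than that of all features. Fold changes on the log2(value + 1) scale understate the change of low genes. Counts were deposited only in normalized form, so no count model was used and depth enters as the mean total count, which limits low genes most.

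Per-kilobase levels divide by the union of exons in GENCODE M21 (GRCm38), which also gave coordinates. The collagen chain genes and the pathway and marker lists were chosen with earlier results of these data known. All 41 genes are accounted for. Detail was given for the 3 genes with the highest mean in each group, the 5 with the smallest p and the 3 with the largest change among those called. Libraries were given singly for Col1a1, Col3a1, Col4a1, Col6a1 and genes called at a time, in an F test or as rhythmic. Chain pairs were set as log2 ratios within a library, and the 2 genes with the smallest p in each pathway list were named. Dcn, Col7a1 and further single values at 8 h were added after their values were seen. Alternatives changed the pseudocount, filter, scaling, variance model, library weights, replicate block, library names and the libraries left out; leaving out each time and taking replicate number 1 or 2 alone were chosen after seeing the data.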

Additional observations from a re-analysis of the deposited data

How the results depend on the processing

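For the mean over the 6 times, 20 of 41 collagen chain genes were called lower. The count was 16 to 22 under other pseudocounts, filters, median-of-ratios rescaling, an intensity trend, library weights and the replicate block, where 1.78% to 8.28% of all features were called lower. It was 0 without the 8 libraries named in both ways (0.028% of all features) and 0 under their other names (0%). With only replicate 1, only replicate 2 or only replicate 3 it was 0 (0% each), and 34 of 41 changes were negative in each. It was 2 without 8 h (0.112%), 13 without 20 h (1.36%), 14 without 4 h (1.58%) and 16 to 20 without the others (2% to 3.6%). Over all features the share called lower was 0.00559% to 4.19% when a replicate number or a single library was left out. Leaving out a replicate number or one library in turn gave 0 to 20 genes for the mean over the 6 times, 0 to 16 calls at single times against 12, 0 for the interaction and for rhythm in CORT, 0 to 1 for change over time in CORT, 0 to 2 for change over time in vehicle and 0 to 3 for rhythm in vehicle; the count of 0 for the mean came without replicate 2. At single times library weights gave 20 calls, and both settings on the 8 libraries gave 0. Change over time in vehicle gave 2 genes with a pseudocount of 5, with a mean of at least 10, with an intensity trend and with the replicate block, 9 with library weights, and 0 without the 8 libraries or under their other names. Library weights also gave 9 rhythmic genes in vehicle, 1 gene for change over time in CORT and 3 for the interaction, while rhythm in vehicle gave 0 without the 8 libraries and 0 under their other names. For the mean over the 6 times, library weights called 8.28% of all features lower, against 2.82% as reported. For the other comparisons the shares of all features under the alternatives are not given here, so those counts cannot be read as particular to collagen chain genes. The cause of these shifts was not tested.

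The 20 called genes kept their sign in every alternative. Among genes not called, Col6a6 turned to -0.0128 with rescaling, -0.15 with library weights, -0.13 without the 8 libraries, -0.0574 under their other names and -0.0263 with only replicate 3. Without the 8 libraries Col13a1 turned to 0.0036 and Col9a2 to 0.0927. Under the other names Col4a4 turned to -0.0147, Col8a2 to 0.11 and Col9a2 to 0.23. Of the alternatives added after seeing the data, only replicate 1 turned Col13a1 to 0.32, Col17a1 to 0.0321, Col20a1 to 0.00181, Col24a1 to 0.12, Col6a6 to -0.39 and Col9a2 to 0.00337, and only replicate 2 turned Col19a1 to 0.58, Col25a1 to 0.19, Col4a4 to -0.00131, Col6a5 to 0.20, Col8a2 to 0.0224 and Col9a3 to 0.19. Col6a5 turned to 0.18 without 4 h and 0.13 without 12 h, Col17a1 to 0.13 without 12 h, Col4a4 to -0.00351 and Col6a6 to -0.0108 without 8 h, Col19a1 to 0.0560, Col6a6 to -0.20 and Col8a2 to 0.00513 without 16 h, and Col6a6 to -0.14 without 24 h. With only replicate 3, Col18a1 turned to 0.0185, Col22a1 to 0.77, Col4a3 to 0.13, Col6a5 to 0.0812 and Col9a2 to 0.16. Leaving out one library or replicate number at a time moved Col19a1 between -0.40 and 0.17, Col4a4 between -0.020 and 0.10, Col6a5 between -0.15 and 0.14, Col6a6 between -0.21 and 0.20 and Col9a2 between -0.36 and 0.081.

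Deviations from group means were correlated over all pairs of libraries from different groups, within and across treatments. The mean r was 0.11 for the same replicate number, so libraries of one number were somewhat more alike. For different numbers it was -0.06. Deviations cancel within each group, so this second value largely follows from the first and adds no separate observation. Of the 18 pairs of a CORT and a vehicle library of one time and number, 8 exceeded 0.1, with a range of -0.20 to 0.48. Whether a number marks a pairing or a shared batch was not tested. The replicate block called 3.93% of all features lower, against 2.82% as reported. With the replicate block, 20 genes were called for the mean over the 6 times and 15 at single times, and 2 genes changed over time in vehicle. The shares of all features at single times and for change over time with the block are not given here. Low values limit what could be seen: 1 of 10 genes with a mean under 50 was called, and the share of all features at that level was not computed.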
